A study of Homo sapiens with 12 samples.

Results

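Prostaglandins are lipid signals that cells make from arachidonic acid, and the 10 genes described here cover the route from the membrane lipid to the receptor. The list was drawn up with earlier results of these data known. Its genes were taken by symbol from the table of 16383 genes, and none was left out for its values: PLA2G4A, PTGS1, PTGS2, PTGES, PTGES2, PTGES3, PTGIS, PTGER2, PTGER4 and HPGD. All 10 had a row, and 9 of the 10 passed the filter of a mean of at least 10 normalized counts over all libraries. HPGD did not pass it and was not tested.

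The RNA came from 4 groups of IMR90 cultures with 3 libraries each; IMR90 is an established fibroblast line from human lung, here labelled wild type. The first group was proliferating and untreated. The other groups had received 20 Gy of ionizing radiation, which makes fibroblasts stop dividing and enter senescence, and from day 4 were given DMSO (the solvent control), 2 µM palbociclib (an inhibitor of the cell cycle kinases CDK4 and CDK6) or 2 µM ruxolitinib (an inhibitor of the JAK kinases) on alternate days until harvest on day 11. All irradiated groups therefore share the radiation, no inhibitor was given to cells that had not been irradiated, and the whole study rests on 1 cell line. The proliferating group got no DMSO and has no harvest day in the labels. Radiation, solvent, time in culture and growth arrest therefore cannot be told apart in comparisons with it. Below, "after irradiation" means DMSO against proliferating cells.

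As background, a phospholipase such as PLA2G4A frees arachidonic acid from the membrane, and the cyclooxygenases PTGS1 (COX-1) and PTGS2 (COX-2) turn it into prostaglandin H2. Terminal synthases then make prostaglandin E2 (PTGES, PTGES2 and PTGES3) or prostacyclin (PTGIS). Prostaglandin E2 signals through the EP receptors, of which EP2 and EP4 raise cyclic AMP, and HPGD starts its breakdown. Fibroblasts are a known source of prostaglandin E2 in the lung, and PTGS2 is known to respond to inflammatory signals such as interleukin 1.

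Each library held between 14106799 and 21762412 reads assigned to listed genes. On the fourth principal component, which held 3% of the variance, proliferating library A126 (-17.1) lay apart from A125 (6.5) and A127 (10). Palbociclib libraries A119 (18.6) and A120 (-17.6) lay on opposite sides of A121 (1.4). Where leaving out A119, A120 and A126 together changed a call, the value without them is given below. That fit keeps 1 palbociclib library. The labels do not say whether the 3 libraries of a group came from separate cultures, so a p-value here measures only the spread between these samples, which may be technical. In RNA from whole cultures, fewer cells that express a gene and less RNA per cell cannot be told apart. All 12 fibroblast markers checked (among them COL1A1, COL1A2 and PDGFRA) were read, and their summed normalized count was 848319 to 873173 per proliferating library, 427263 to 437665 under DMSO, 679762 to 702218 under palbociclib and 535601 to 539593 under ruxolitinib. The lung epithelial markers SFTPC and SFTPB, the endothelial marker CDH5, the lymphocyte markers CD3E and MS4A1, and MYH11 of smooth muscle had at most 3 reads in any library. Other genes of those lists were read well, among them the keratin gene KRT18 (group means of 1245 to 2912 normalized counts), TEK (1832 to 3957), CD68 (548.7 to 1232) and ACTA2 (4419 to 15437). The epithelial sum (8 genes, 3 with at most 3 reads in any library) was 2062 to 2544 in proliferating libraries, 1803 to 2054 under DMSO, 3620 to 4239 under palbociclib and 1813 to 1955 under ruxolitinib. The endothelial sum (6 genes, 1 with at most 3 reads) was 1681 to 1949, 2394 to 2558, 3503 to 4381 and 2250 to 2256 in the same order of groups. The smooth muscle and pericyte sum (6 genes, 1 with at most 3 reads) was 24652 to 26103, 9389 to 10140, 18540 to 20616 and 8757 to 8920. The part of these markers in the results below was not tested.

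The bases before the start sites of 4 genes are shown first, because PTGS2 and PTGES were high with DMSO and low with palbociclib, and because the receptor genes PTGER2 and PTGER4 went different ways after irradiation. Each run is the 250 bases before the gene's start, read 5′ to 3′ on the gene's own strand, from RefSeq on GRCh38.p14. PTGS2 lies at chr1:186680424-186680673 on the minus strand, PTGES at chr9:129753043-129753292 on the minus strand, PTGER2 at chr14:52314062-52314311 on the plus strand and PTGER4 at chr5:40679665-40679914 on the plus strand. Capitals mark matches on either strand to the motifs searched.
PTGS2: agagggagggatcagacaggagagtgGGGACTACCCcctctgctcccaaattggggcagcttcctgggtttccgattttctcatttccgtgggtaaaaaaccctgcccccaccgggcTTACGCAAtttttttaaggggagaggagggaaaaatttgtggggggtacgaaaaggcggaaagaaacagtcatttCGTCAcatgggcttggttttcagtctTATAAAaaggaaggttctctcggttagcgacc
PTGES: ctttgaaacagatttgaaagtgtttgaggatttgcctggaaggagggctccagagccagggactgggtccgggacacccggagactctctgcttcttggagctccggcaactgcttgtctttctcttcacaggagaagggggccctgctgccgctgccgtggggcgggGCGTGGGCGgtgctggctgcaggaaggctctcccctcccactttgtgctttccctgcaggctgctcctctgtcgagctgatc
PTGER2: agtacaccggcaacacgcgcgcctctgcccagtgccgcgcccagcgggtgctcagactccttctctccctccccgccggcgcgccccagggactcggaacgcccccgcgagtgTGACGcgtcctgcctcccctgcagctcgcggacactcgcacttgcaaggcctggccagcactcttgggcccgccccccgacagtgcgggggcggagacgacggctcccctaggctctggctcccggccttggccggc
PTGER4: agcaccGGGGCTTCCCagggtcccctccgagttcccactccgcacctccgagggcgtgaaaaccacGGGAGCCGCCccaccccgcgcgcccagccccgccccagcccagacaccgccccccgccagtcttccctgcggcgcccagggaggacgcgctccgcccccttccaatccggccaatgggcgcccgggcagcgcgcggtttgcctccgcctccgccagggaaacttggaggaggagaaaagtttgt
The motifs, searched on both strands, were NF-kB (GGGA, 4 bases of any kind, CC), the core of the cAMP response element (TGACG), C/EBP (TTNNGNAA), AP-1 (TGANTCA), GAS (TTCNNNGAA), ISRE (GAAA, 2 bases of any kind, GAAA) and the TATA box (TATAAA), and no match to one motif overlapped a match to another in the runs printed. The PTGS2 run holds an NF-kB match that starts 224 bases before the start site, a C/EBP match at 133, a cAMP response element core on the reverse strand at 58 and a TATA box at 32. Among 35116 promoter windows of this length, 22.6% hold the NF-kB letters, 33.2% the C/EBP letters, 21.2% the cAMP core and 10.7% the TATA box. AP-1, GAS and ISRE, held by 6.57%, 6.57% and 3.02% of windows, had no match in the runs printed. The PTGES run holds none of these 7 motifs, and its capitals mark GCGTGGGCG, the motif of EGR1, at 82 bases before the start. That motif was added after the sequences were seen, and 0.72% of windows hold it. It is not particular to PTGES among these genes: a window of PTGES2, not printed, holds it at 147 bases before the start. PTGER2 has a cAMP core at 137, and PTGER4 has NF-kB matches at 184 and, on the reverse strand, at 244. The promoter table held 9 of the 10 genes, all but PTGIS. Windows not printed also hold matches, among them NF-kB letters in PTGS1, PTGES3 and HPGD. A match here describes the letters of the window and was not measured as a binding site.

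Irradiated cells with DMSO held more PTGS2 and PTGES RNA and far less PTGER2, PTGIS and PTGES3 RNA than proliferating cells. With palbociclib, PTGS2 and PTGES were lower than with DMSO and PTGIS was higher, while PTGER2 and PTGES3 stayed near their DMSO level. With ruxolitinib, PTGS2 lay between the proliferating and DMSO levels and the PTGES values overlapped those with DMSO. In DMSO against proliferating cells, 8 of the 9 tested genes were called at an adjusted p under 0.05 (limma), 3 higher and 5 lower, where 72.4% of all 11242 tested genes were called, 33.0% higher and 39.3% lower. The libraries of both groups did not overlap for 8 of the 9, beside 75.1% of all tested genes. The median log2 fold change was -0.11 over the 9 genes and -0.05 over all genes, so the number of calls is near the background and the sizes carry the description. When every library was scaled to the same total instead, the split was 4 higher and 3 lower, and at the same upper quartile or after quantile normalization it was 3 and 3. Scaling to the same total moved the median of all genes by 0.23 and to the same upper quartile by 0.16 on the log2 scale in this comparison.

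**Figure D1:**
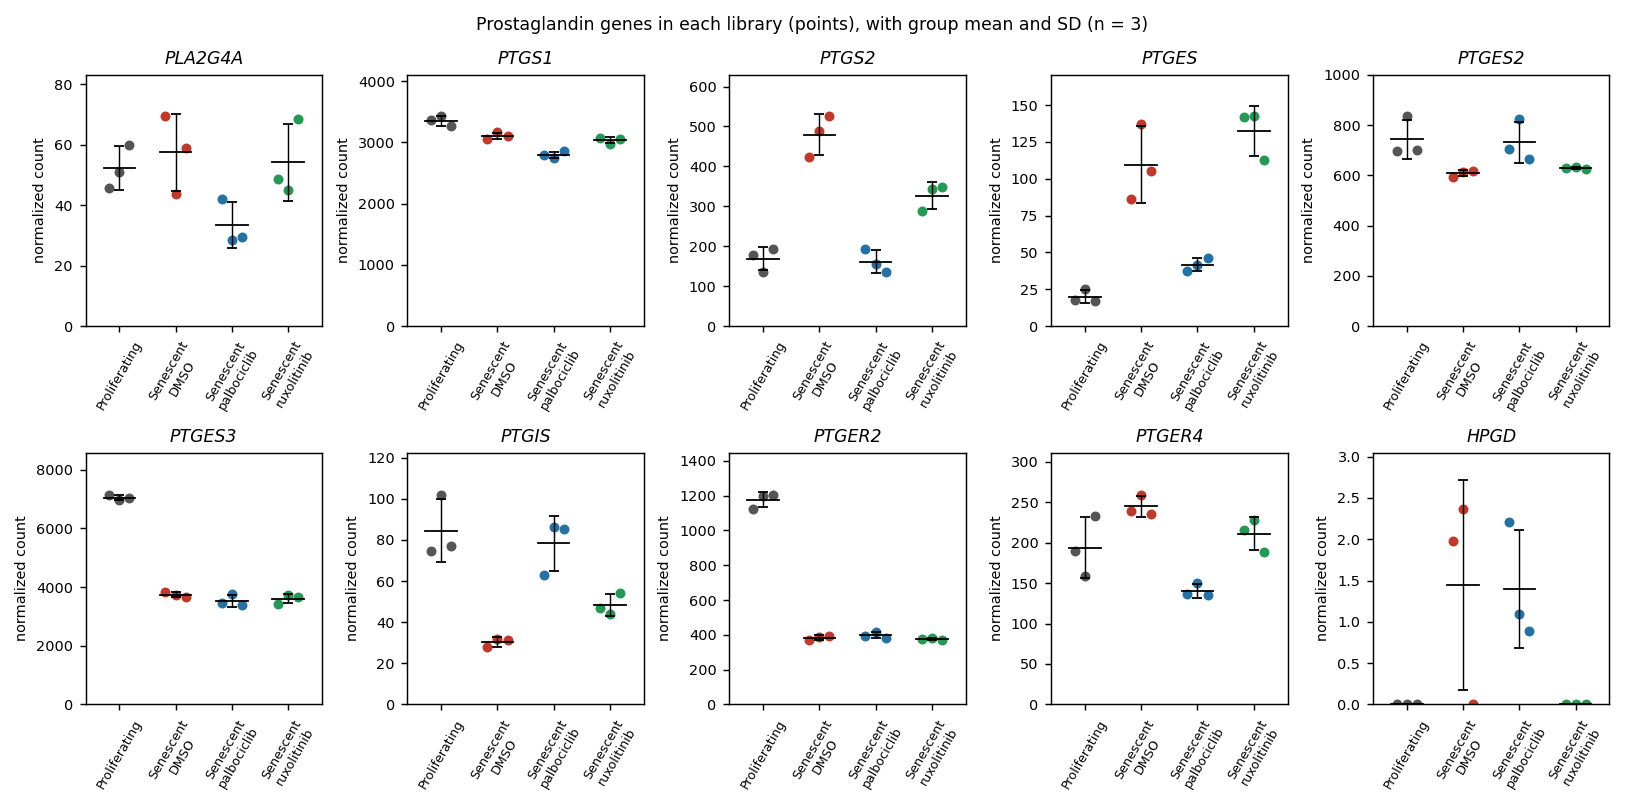
Normalized count (y axis, from 0) of each of the 10 genes in the 12 libraries, grouped by condition (x axis). Points are libraries, and the line and bar are the group mean and SD (n = 3). PTGS2 and PTGES are high with DMSO and ruxolitinib, PTGIS is lowest with DMSO, and PTGER2 and PTGES3 are low in every irradiated library.

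PLA2G4A encodes the cytosolic phospholipase that releases arachidonic acid. Its normalized counts were 45.7, 51.0 and 60 in the proliferating libraries, 69.3, 43.8 and 59.0 with DMSO, 42.1, 28.5 and 29.3 with palbociclib, and 48.6, 45.0 and 68.6 with ruxolitinib. The palbociclib libraries were the low ones and lay below every DMSO library, and the other groups overlapped. The difference between DMSO and proliferating cells was 0.12 on the log2 scale with a 95% interval of -0.36 to 0.59 (limma, adjusted p = 0.648). With palbociclib PLA2G4A fell to 33.3 ± 7.61 (SD, n = 3) from 57.4 ± 12.8 with DMSO, a log2 fold change of -0.77 (SE 0.22, adjusted p = 0.0108, limma). That call was lost without DMSO library A116 (-0.62, adjusted p = 0.0593, limma) and after quantile normalization (-0.41, adjusted p = 0.157, limma). The gene rests on 26 to 76 reads in each library.

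PTGS1, the cyclooxygenase that most tissues express at a steady level, varied little. It was at 3360, 3422 and 3268 normalized counts in the proliferating group, 3059, 3162 and 3101 with DMSO, 2792, 2750 and 2852 with palbociclib, and 3078, 2980 and 3049 with ruxolitinib. The groups were ordered without overlap except for DMSO and ruxolitinib. The step from proliferating to DMSO was -0.11 (limma, adjusted p = 0.035). Its direction depends on the scaling: it was 0.12 with every library at the same total, 0.05 at the same upper quartile and 0.04 after quantile normalization. Leaving out A125, A126, A116 or A118 also ended that call, with adjusted p of 0.0777, 0.0934, 0.104 and 0.0771 (limma). With palbociclib PTGS1 fell by 9.95% against DMSO (log2 fold change -0.15, limma, adjusted p = 0.00983), and that call held under all 25 alternatives.

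PTGS2, the inducible cyclooxygenase, was at a different level with each inhibitor. Proliferating libraries had 177.4, 136.4 and 193.3 normalized counts and DMSO libraries 424.6, 488.9 and 525.0. Palbociclib libraries had 192.6, 154.3 and 135.9, and ruxolitinib libraries 287.8, 342.2 and 349.2. Every DMSO library was above every ruxolitinib library, every ruxolitinib library was above every palbociclib and proliferating library, and those last groups overlapped. Against proliferating cells, DMSO cells held 2.84-fold more PTGS2 RNA (95% interval 2.3 to 3.52), a log2 fold change of 1.51 (SE 0.14, limma, adjusted p = 1.38e-07). With palbociclib it fell by 66.4% against DMSO (log2 fold change -1.58, limma, adjusted p = 4.21e-07), to 160.9 ± 28.9 (SD, n = 3) beside 169.0 ± 29.4 in proliferating cells.

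The log2 difference between palbociclib and proliferating cells was -0.07 with a 95% interval of -0.38 to 0.24 (limma, adjusted p = 0.672). Without libraries A119, A120 and A126 together, which leaves 1 palbociclib library assumed to vary like the other groups, that difference was -0.44. The library left, A121, had the lowest PTGS2 count of the palbociclib libraries. Ruxolitinib cells stayed 1.93-fold above proliferating cells (limma, adjusted p = 2.20e-05). With ruxolitinib PTGS2 fell by 31.9% against DMSO, a log2 fold change of -0.55 (SE 0.14, limma, adjusted p = 0.0396). That call was lost when any of A125, A116, A117, A118, A122, A123 or A124 was left out, with an adjusted p of up to 0.199 (limma), and it held in both count models on whole reads. The palbociclib level was lower than the ruxolitinib level by 1.03 on the log2 scale (limma, adjusted p = 4.71e-05), which held under all 25 alternatives. PACERR, an antisense RNA, overlaps 3.99% of the exon bases of PTGS2, and the strand setting of the counting is not given in the sources used here, so reads of both genes in that overlap cannot be told apart. The summed level of the 6 blood cell markers was likewise highest with DMSO (1224 to 1308) and next with ruxolitinib (1070 to 1149), but was higher with palbociclib (697.2 to 805.7) than in proliferating libraries (543.7 to 569.6). That sum was mostly CD68, at a mean of 1232 with DMSO, 1093 with ruxolitinib, 740.6 with palbociclib and 548.7 in proliferating cells, while CD3E and MS4A1 had at most 3 reads in any library. The part of these markers in the PTGS2 result was not tested.

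Per kb of exon, PTGS1 was the more abundant cyclooxygenase in every library, and the share of PTGS2 in the sum of both moved with the condition. That share was 5.28%, 4.03% and 5.87% in the proliferating libraries, 12.8%, 14% and 15.1% with DMSO, 6.78%, 5.59% and 4.79% with palbociclib, and 8.98%, 10.8% and 10.8% with ruxolitinib. DMSO libraries had the highest shares, ruxolitinib libraries came next, and palbociclib and proliferating libraries overlapped. An exact permutation test of the log2 ratio over the 4 groups, which takes a difference in either direction, gave p = 0.000325. The test and its counterpart for the receptors were chosen after the values were seen, and 0.000325 is also the p adjusted over these 2 tests. That adjustment does not allow for the choice.

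**Figure D2:**
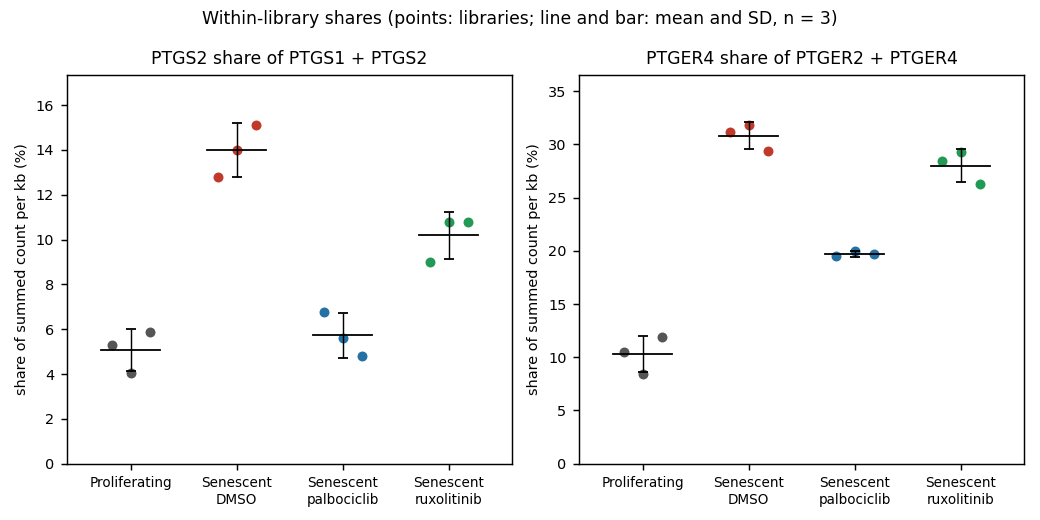
Share of PTGS2 in the summed normalized count per kb of PTGS1 and PTGS2 (left, %) and of PTGER4 in that of PTGER2 and PTGER4 (right, %), by condition. Points are libraries, and lines and bars are the mean and SD (n = 3). The PTGS2 share is 14% with DMSO and 5.72% with palbociclib, and the PTGER4 share is 10.3% in proliferating cells and 30.8% with DMSO.

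PTGES encodes the inducible microsomal prostaglandin E synthase, which is known to act together with PTGS2, and it rose by the largest factor of the 9 tested genes after irradiation. Its normalized counts were 17.6, 25.5 and 17.1 in proliferating libraries, 86.1, 137.3 and 105.2 with DMSO, 37.6, 41.6 and 46.2 with palbociclib, and 142.0, 142.3 and 112.8 with ruxolitinib. Proliferating libraries were lowest, palbociclib libraries were next without overlap, and DMSO and ruxolitinib libraries were high and overlapped. DMSO cells held 5.45-fold more PTGES RNA than proliferating cells (95% interval 3.89 to 7.02), a log2 fold change of 2.39 (SE 0.20, limma, adjusted p = 2.82e-08). With palbociclib PTGES fell by 61.8% against DMSO (log2 fold change -1.35, limma, adjusted p = 5.64e-05). It remained 2.08-fold above proliferating cells (limma, adjusted p = 0.000219), beside -0.07 on the log2 scale for PTGS2; whether both genes differed in this was not tested.

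Ruxolitinib and DMSO differed in PTGES by 0.29 on the log2 scale with a 95% interval of -0.14 to 0.71 (limma, adjusted p = 0.544). Between the inhibitors the difference was -1.64, palbociclib being lower (limma, adjusted p = 1.15e-05). The increase after irradiation, the decrease with palbociclib and the difference between the inhibitors held under all 25 alternatives, with log2 fold changes of 1.9 to 2.61, -1.57 to -1.06 and -1.83 to -1.46. PTGES rested on 17 to 23 reads in each proliferating library and on 87 to 184 reads in each DMSO and ruxolitinib library, so its proliferating level is the least precise.

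PTGES2, a synthase that most tissues express steadily, moved little. It was at 695.2, 834.0 and 699.9 normalized counts in the proliferating group, 593.9, 614.4 and 616.3 with DMSO, 703.8, 823.2 and 665.3 with palbociclib, and 630.4, 634.8 and 625.3 with ruxolitinib. Proliferating and palbociclib libraries overlapped, and both lay above the DMSO and ruxolitinib libraries. Its log2 fold change was -0.28 for DMSO against proliferating cells (limma, adjusted p = 0.00654) and 0.26 for palbociclib against DMSO (limma, adjusted p = 0.0187). The first call was lost under each of the 3 other scalings (-0.05, -0.12 and -0.14). The second was lost with every library at the same total (0.03), without A116 (adjusted p = 0.0619, limma), without A120 (adjusted p = 0.0881, limma) and without A119, A120 and A126 together (0.13).

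PTGES3 encodes p23, a partner of the chaperone HSP90 that also has prostaglandin E synthase activity, and it was the most abundant of the genes per kb of exon in every library. Its normalized counts were 7148, 6961 and 7049 in proliferating libraries, and between 3376 and 3849 in the 9 irradiated libraries. The proliferating libraries stood well apart, and the irradiated groups overlapped one another. PTGES3 fell by 46.9% after irradiation (log2 fold change -0.91, SE 0.05, limma, adjusted p = 2.30e-10). Against DMSO it was at -0.09 with palbociclib (95% interval -0.2 to 0.02) and at -0.06 with ruxolitinib (95% interval -0.16 to 0.05). With palbociclib it was called lower with every library at the same total (-0.31), after quantile normalization (-0.26) and without A120 (-0.13). It was at -0.15 without A119, A120 and A126 together, which leaves 1 palbociclib library. GENCODE lists 5 pseudogenes of PTGES3 and 2 of PTGER4, and reads that such copies share could be split between them, so both genes' levels are less certain.

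PTGIS, the prostacyclin synthase, went the opposite way to PTGS2 in each comparison with DMSO. Its normalized counts were 74.7, 102.0 and 77.1 in proliferating libraries, 27.7, 32.0 and 31.2 with DMSO, 63.1, 86.5 and 85.3 with palbociclib, and 47.1, 44.1 and 54.1 with ruxolitinib. DMSO libraries were lowest, ruxolitinib libraries lay above them, and palbociclib and proliferating libraries were highest and overlapped. The gene fell by 64.2% after irradiation (log2 fold change -1.44, SE 0.18, limma, adjusted p = 2.38e-06). It was 2.58-fold higher with palbociclib than with DMSO (95% interval 1.93 to 3.26, limma, adjusted p = 2.12e-05). Palbociclib and proliferating cells differed by -0.11 on the log2 scale with a 95% interval of -0.49 to 0.27 (limma, adjusted p = 0.583).

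With ruxolitinib PTGIS was 1.6-fold higher than with DMSO (limma, adjusted p = 0.0466). That call was lost under 15 of 25 alternatives, among them both count models on whole reads and the omission of A125, A127, A116, A117, A118, A121, A122, A123 or A124, with an adjusted p of up to 0.206 (limma). PTGIS was 1.62-fold higher with palbociclib than with ruxolitinib (limma, adjusted p = 0.00698), and this held under all 25 alternatives. The summed fibroblast markers moved in the same order as PTGIS over the 4 groups. COL1A1, COL1A2 and VIM were the largest terms of that sum, with means of 401324, 226318 and 118665 in proliferating cells. Single markers did not all keep that order. DCN had a mean of 11887 in proliferating cells and 13247 with DMSO, and PDGFRA had 4123 with DMSO and 3368 with palbociclib. After irradiation limma called 9 of the 12 lower and 2 higher, where 39.3% and 33.0% of all genes were. Palbociclib against DMSO gave 9 higher calls and 1 lower (limma), where 26.0% and 22.3% of all genes were. The part of these markers in the PTGIS result was not tested.

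**Figure D3:**
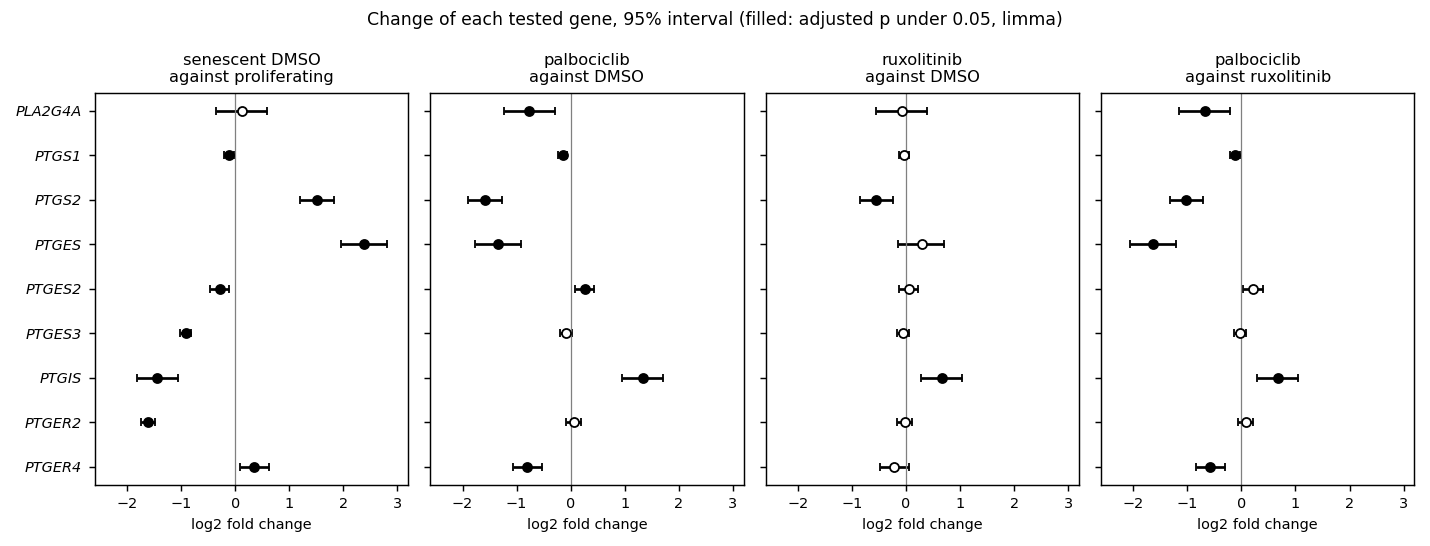
Log2 fold change (x axis) of the 9 tested genes (y axis) in 4 comparisons, with 95% intervals, from limma on log2(normalized count + 1), n = 3 per group. Filled points have an adjusted p under 0.05. PTGS2 and PTGES lie right of 0 in the first panel and left of 0 in the second, PTGIS lies the other way, and PTGER2 and PTGES3 have filled points in the first panel and open points in the other 3.

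PTGER2 encodes EP2, and it had the smallest adjusted p of the 9 tested genes after irradiation. Proliferating libraries had 1126, 1199 and 1205 normalized counts, and the 9 irradiated libraries had between 368.2 and 418.2. The irradiated libraries were all low, and no proliferating library came near them. PTGER2 fell by 67.5% after irradiation (382.8 ± 13.3 against 1176 ± 43.9, SD, n = 3), a log2 fold change of -1.62 (SE 0.06, limma, adjusted p = 4.21e-12). Palbociclib differed from DMSO by 0.06 (95% interval -0.08 to 0.19, limma, adjusted p = 0.498) and ruxolitinib by -0.02 (95% interval -0.16 to 0.11, limma, adjusted p = 0.92). With every library at the same total, PTGER2 was lower with palbociclib than with DMSO (-0.17, limma, adjusted p = 0.0338), so the sign of that small difference depends on the scaling.

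PTGER4 encodes EP4, the other receptor of prostaglandin E2 that raises cyclic AMP. It was at 189.9, 158.6 and 233.3 normalized counts in the proliferating group, 239.5, 259.3 and 235.9 with DMSO, 136.1, 150 and 135.0 with palbociclib, and 216.0, 228.7 and 188.6 with ruxolitinib. Palbociclib libraries were below all others, and proliferating and ruxolitinib libraries overlapped. The rise after irradiation was 1.26-fold (log2 fold change 0.35, limma, adjusted p = 0.02). That call was lost without A126 (0.22, limma, adjusted p = 0.115), A117 (0.31, limma, adjusted p = 0.0708) or A119, A120 and A126 together (0.22, limma, adjusted p = 0.0871). With palbociclib PTGER4 fell by 42.7% against DMSO (log2 fold change -0.80, SE 0.13, limma, adjusted p = 0.000102). It fell by 27.6% against proliferating cells (limma, adjusted p = 0.00466). The first of these held under all 25 alternatives, and the second was lost after quantile normalization (-0.22, limma, adjusted p = 0.13). Ruxolitinib differed from DMSO by -0.22 with a 95% interval of -0.48 to 0.05 (limma, adjusted p = 0.45).

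The balance of the EP2 and EP4 transcripts therefore differed between conditions. Per kb of exon, PTGER4 made up 10.5%, 8.43% and 11.9% of the sum of both in the proliferating libraries and 31.2%, 31.8% and 29.4% with DMSO. It made up 19.5%, 20.0% and 19.7% with palbociclib and 28.4%, 29.3% and 26.3% with ruxolitinib. Proliferating libraries were lowest and palbociclib libraries were between them and the others without overlap. The same exact permutation test of the log2 ratio gave p = 6.49e-05 (adjusted over 2 tests, 0.00013), the smallest that 369600 arrangements can give. This ratio too was chosen after the values were seen, and the adjustment does not allow for that choice. PTGER2 remained the more abundant receptor per kb of exon in every library.

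HPGD, the enzyme that begins the breakdown of prostaglandin E2, had 0 reads in all proliferating and ruxolitinib libraries, 2, 2 and 0 reads with DMSO, and 2, 1 and 1 with palbociclib. All these values are below the 3 reads that a count of 0 allows, so no fold change is given and no difference was detectable at this depth. Counting error only is covered by that limit.

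Compared per kb of exon, the order of the genes in proliferating cells was PTGES3 (2075 normalized counts per kb), PTGS1 (579.2), PTGER2 (477.3), PTGES2 (122.1), PTGER4 (54.7), PTGS2 (30.8), PLA2G4A (18.1), PTGIS (15.2) and PTGES (10.6). Neighbours in that order did not overlap between libraries except PLA2G4A with PTGIS and PTGIS with PTGES. With DMSO the levels were 1102 for PTGES3, 537.2 for PTGS1, 155.3 for PTGER2, 100 for PTGES2, 87.4 for PTGS2, 69.1 for PTGER4, 57.9 for PTGES, 19.9 for PLA2G4A and 5.44 for PTGIS, and only PTGER4 and PTGES overlapped among neighbours. PTGES was above PTGIS in every DMSO library. It was below PTGIS in every proliferating library, though the ranges of both genes overlapped between those libraries. The exon length used is the union over all GENCODE transcripts of a gene, which overstates the length where a short transcript is the one made.

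**Figure D4:**
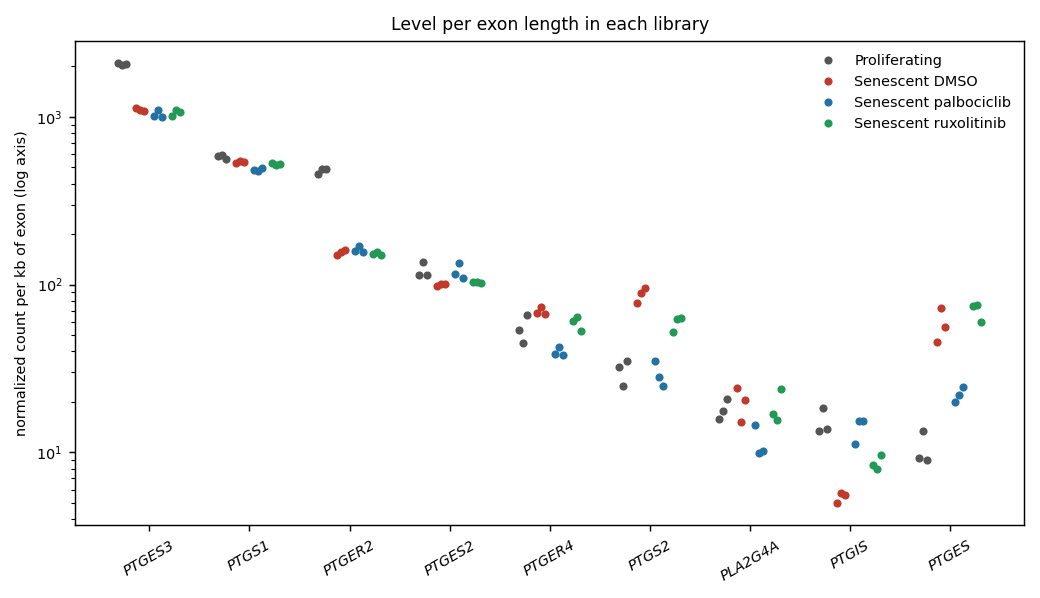
Normalized count per kb of exon (y axis, log axis) of the 9 tested genes (x axis, in the order of their proliferating level) in each of the 12 libraries (points, coloured by condition). PTGES3 is highest and PTGES rises from the lowest place in proliferating cells, at 10.6, to 57.9 with DMSO.

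Palbociclib against DMSO called 7 of the 9 genes, 2 higher and 5 lower (limma), where 48.3% of all tested genes were called, 26.0% higher and 22.3% lower. The groups did not overlap for 7 of the 9, beside 54.8% of all tested genes. Lower were PLA2G4A, PTGS1, PTGS2, PTGES and PTGER4, and higher were PTGIS and PTGES2. PTGES3 (-0.09) and PTGER2 (0.06) were not called. The median log2 fold change of the 9 genes was -0.15, beside 0.02 for all genes. With every library at the same total the split was 1 higher and 7 lower, and the median of all genes moved by -0.23. Ruxolitinib against DMSO called 2 of the 9 genes, PTGS2 lower and PTGIS higher (limma), where 4.52% of all tested genes were called, 1.10% higher and 3.42% lower. The groups did not overlap for 4 of the 9 genes (PTGS2, PTGES2, PTGIS and PTGER4), beside 31.9% of all tested genes. This count is 0 without A125, A116, A117, A118, A122, A123 or A124, with 2 to 3 of the genes at an unadjusted p under 0.05 (limma), and 1 in edgeR and in DESeq2.

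Palbociclib against ruxolitinib, which shares no control library between its groups, called 6 of the 9 genes, 1 higher and 5 lower (limma), where 40.4% of all tested genes were called, 22.8% higher and 17.6% lower. The groups did not overlap for 8 of the 9, beside 51.8% of all tested genes. The 5 lower genes were PLA2G4A, PTGS1, PTGS2, PTGES and PTGER4, and the higher one was PTGIS. The PTGS1 difference (-0.12, limma, adjusted p = 0.0422) was lost when any 1 of A125, A116 to A118, A119 to A121 or A122 to A124 was left out, with an adjusted p of up to 0.13 (limma). Without A119, A120 and A126 together it was -0.09. The PLA2G4A difference (-0.68, limma, adjusted p = 0.0241) was lost without A120, A121 or A124, with an adjusted p of up to 0.124 (limma), and after quantile normalization (-0.39, limma, adjusted p = 0.202). PTGES2, not called in this comparison (0.21, limma, adjusted p = 0.0595), was called higher without A126 (0.21, limma, adjusted p = 0.0282) or A121 (0.27, limma, adjusted p = 0.0302). Against proliferating cells, palbociclib called 6 genes (1 higher, 5 lower, limma) where 73.8% of all tested genes were called, 35.2% higher and 38.6% lower, and the groups did not overlap for 6 of the 9, beside 70.9%. The palbociclib call of PLA2G4A there was lost without A127, A120 or A121, with an adjusted p of up to 0.0653 (limma). Ruxolitinib called 7 (2 higher, 5 lower, limma) where 72.2% of all tested genes were called, 32.6% higher and 39.5% lower, and the groups did not overlap for 7 of the 9, beside 76.2%. With every library at the same total the ruxolitinib split was 3 higher and 3 lower. The call of PTGES2 in that comparison (-0.23) was lost without A126 or A124, in both count models and under each of the 3 other scalings, and that of PTGS1 (-0.14) was lost in both count models and turned positive under those scalings. These comparisons share the proliferating libraries with the DMSO comparison, and their values stand above gene by gene.

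The genes named next lay nearest in course to 4 of the members over the 12 libraries, by the root mean square difference of centred log2 values. Only genes with a mean of at least 100 were compared, and the nearest need not be close. The 3 genes nearest to PTGES were DUSP4 (0.256), a phosphatase of MAP kinases, MMP3 (0.308), a matrix protease, and NR4A2 (0.328), a nuclear receptor. The 3 nearest to PTGS2 were BIRC3 (0.206), an inhibitor of apoptosis, LINC00472 (0.21) and HMOX1 (0.233), the inducible heme oxygenase. Nearest to PTGER2 were the RNA-binding proteins SRSF7 (0.06) and HNRNPA1 (0.063) and the exosome subunit EXOSC9 (0.069). Nearest to PTGIS were RPLP0 (0.264), a ribosomal protein, COL1A2 (0.268), a chain of type I collagen, and PYCR1 (0.269), an enzyme of proline synthesis. The nearest genes lay closest for PTGER2 among these 4.

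Of 11 tested genes in the list of other phospholipases and arachidonate supply, 9 were higher with DMSO than in proliferating cells and 1, ACSL4, was lower at -0.30 (limma), where 33.0% and 39.3% of all genes were. Their median log2 fold change was 0.52, beside -0.05 for all genes. The list mixes roles: ANXA1, known as an inhibitor of phospholipase A2, was among the 9, and PLA2G4A itself was not called. PLA2G4C, another phospholipase of the cytosolic family, rose 3.5-fold, PLA2G6 2.61-fold, and PLAAT3 by 0.91 on the log2 scale. With palbociclib 4 of the 11 were higher than with DMSO and 1 lower, where 26.0% and 22.3% of all genes were: PLA2G12A (0.53), PLA2G15 (0.46), ANXA1 (0.45) and MGLL (0.40) were higher and DAGLA (-0.43) was lower on the log2 scale. The calls of ANXA1, MGLL and DAGLA were lost after quantile normalization, and that of DAGLA also without A119, A120 and A126 together. With ruxolitinib MGLL was the 1 gene of the list called, at -0.27.

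Among other synthases and reductases of prostaglandins, 5 of 8 tested genes were higher and 1 lower after irradiation (limma), where 33.0% and 39.3% of all genes were. AKR1C1 rose 3.54-fold and AKR1C2 by 1.76 on the log2 scale; these aldo-keto reductases are near-identical copies whose reads the counting could split, so both are uncertain. CBR3, a carbonyl reductase, fell by 1.33 on the log2 scale. With palbociclib 4 of the 8 were lower than with DMSO and 2 higher (limma), where 22.3% and 26.0% of all genes were. AKR1C1 fell by 40.7% (limma, adjusted p = 0.00106), and AKR1B1, which can make prostaglandin F2 alpha, was at -0.64. AKR1C2 was at -1.13, a call lost without A117, A118 or A120 and after quantile normalization (limma, adjusted p of up to 0.0909). With ruxolitinib GSTM3, a glutathione transferase, was called higher (0.27, limma, adjusted p = 0.017), a call lost without A116, A118, A122, A123 or A124.

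In the list of other prostanoid receptors, 4 of 7 tested genes were higher and 2 lower after irradiation (limma), where 33.0% and 39.3% of all genes were. Their median log2 fold change was 0.67, beside -0.05 for all genes. This list also mixes roles. The 4 higher were the membrane receptor genes PTGIR, PTGFR, PTGER1 and TBXA2R (0.67). The 2 lower were the nuclear receptor genes PPARG (-0.59) and PPARD (-0.24), and PTGFRN, not itself a prostanoid receptor, was not called. PTGIR, the prostacyclin receptor, went from 28.9 ± 3.23 to 111.2 ± 8.84 normalized counts (SD, n = 3), a 3.85-fold rise (limma, adjusted p = 7.17e-08), while the synthase PTGIS fell. PTGFR, the receptor of prostaglandin F2 alpha, rose 2.37-fold (limma, adjusted p = 5.30e-08) and PTGER1, which encodes EP1, 1.95-fold (limma, adjusted p = 0.000536). PTGER1 was lower with palbociclib than with DMSO (-0.84, limma, adjusted p = 0.00333), a call lost after quantile normalization. PTGFRN was also lower (-0.42), and its call was lost under 10 of 25 alternatives, the omission of A117, A118, A119 or A120 among them. PTGIR was at -0.38 with palbociclib (limma, adjusted p = 0.0828) and at -0.49 with ruxolitinib (limma, adjusted p = 0.147) against DMSO. With ruxolitinib TBXA2R (-0.50) and PPARG (0.32) were called, at adjusted p of 0.0498 and 0.041 (limma), and both calls were lost without any 1 of the DMSO or ruxolitinib libraries.

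SLCO2A1, the prostaglandin transporter that takes prostaglandins into cells, was the gene of transport and breakdown that moved most. Its normalized count was 44.2 ± 7.90 in proliferating cells and 81.5 ± 5.53 with DMSO, against 24.2 ± 6.72 with palbociclib and 39.3 ± 4.59 with ruxolitinib (SD, n = 3). It rose 1.84-fold after irradiation (limma, adjusted p = 0.00183). Against DMSO it fell by 70.3% with palbociclib (limma, adjusted p = 1.06e-05). It fell by 51.8% with ruxolitinib (limma, adjusted p = 0.0106). The ruxolitinib call was lost without A116, A117, A122 or A123, with an adjusted p of up to 0.061 (limma). Of the 4 tested genes of that list 3 were higher after irradiation (limma), where 33.0% of all genes were, the others being ABCC4 (0.64), which exports prostaglandins, and PTGR1 (0.24), a reductase of their metabolites.

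**Figure D5:**
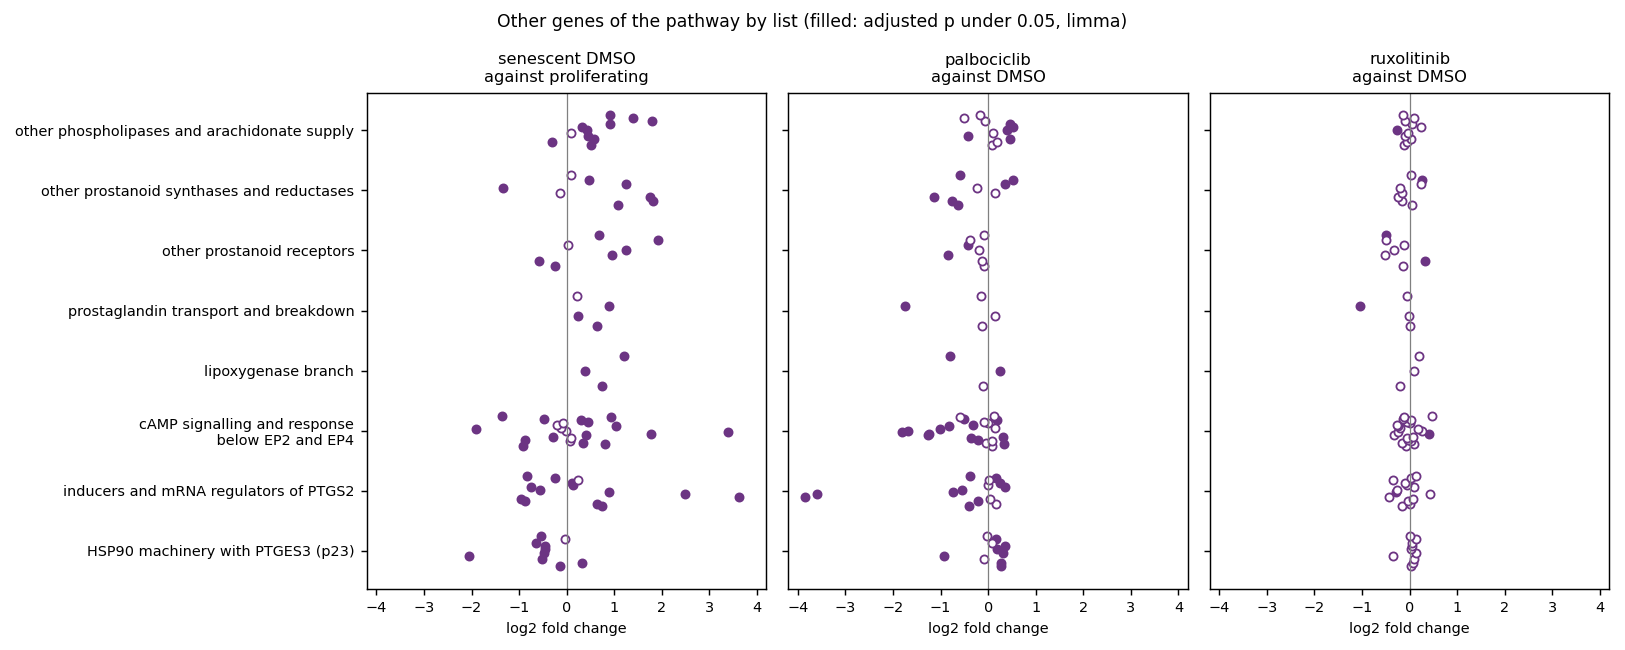
Log2 fold change (x axis) of each tested gene in 8 lists of related genes (y axis) for 3 comparisons, n = 3 per group. Filled points have an adjusted p under 0.05 (limma). In the first panel most of the phospholipase points lie right of 0, and in the third panel few points are filled.

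In the list of cyclic AMP signalling and response, 9 of 21 genes were higher after irradiation and 6 lower (limma), where 33.0% and 39.3% of all genes were. Their median log2 fold change was 0.06, beside -0.05 for all genes. The list holds genes that make cyclic AMP, such as ADCY6, and phosphodiesterases that break it down. A count by direction therefore does not give the direction of the signal. NR4A3, a nuclear receptor that cyclic AMP can induce, went from 16.8 ± 6.45 to 180.7 ± 22.8 normalized counts (SD, n = 3; limma, adjusted p = 7.52e-10), NR4A2 rose by 1.77 and the phosphodiesterase PDE3B fell by 1.91 on the log2 scale. With palbociclib 10 of the 21 were lower than with DMSO and 3 higher (limma), where 22.3% and 26.0% of all genes were. NR4A3 fell by 72.0% (limma, adjusted p = 5.09e-06), PDE3A was at -1.69 and NR4A1 at -1.27. With ruxolitinib NR4A2 was called higher (0.41, limma, adjusted p = 0.0469), a call lost under 12 of 25 alternatives, among them the omission of A125, A127 or any 1 of the DMSO or ruxolitinib libraries.

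Known inducers of PTGS2 and proteins that act on its messenger RNA gave 7 of 14 higher and 6 lower after irradiation (limma), where 33.0% and 39.3% of all genes were. Palbociclib against DMSO gave 7 of the 14 lower and 3 higher (limma), where 22.3% and 26.0% of all genes were. The largest changes in this list were in the cytokine genes IL1A and IL1B. IL1A was at 5.10 ± 3.55 normalized counts in proliferating cells and 62.6 ± 4.75 with DMSO, against 3.45 ± 0.865 with palbociclib and 46.9 ± 9.19 with ruxolitinib (SD, n = 3). IL1B was at 16.8 ± 9.25, 86.8 ± 11.7, 6.86 ± 3.69 and 115.9 ± 10.3 in the same order. IL1A rested on 1 to 8 reads per proliferating library and 3 to 4 per palbociclib library, and IL1B on 6 to 22 and 3 to 12, so the sizes of their changes are imprecise. Both were called higher after irradiation (limma, adjusted p = 1.94e-06 for IL1A and 4.82e-05 for IL1B) and lower with palbociclib than with DMSO (limma, adjusted p = 4.43e-06 for IL1A and 4.00e-06 for IL1B). Their receptor gene IL1R1 fell by 40.0% with palbociclib (limma, adjusted p = 4.14e-07). It fell by 17.9% with ruxolitinib (limma, adjusted p = 0.0233). The ruxolitinib call of IL1R1 was lost without any 1 of the DMSO or ruxolitinib libraries, with an adjusted p of up to 0.119 (limma). ELAVL1, which encodes the RNA-binding protein HuR that stabilizes PTGS2 messenger RNA, fell by 0.97 on the log2 scale after irradiation, and TNF had 0 reads in all 12 libraries.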

How the data were processed

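RNA was measured by poly(A) RNA-seq in 12 libraries, 4 groups of 3, mapped to their groups by the labels. Per the submitters' processing notes, Trimmomatic 0.38.1, HISAT2 2.2.1, featureCounts 2.0.3, FastQC 0.74, MultiQC and DESeq2 2.11.40.8 were used with GRCh38 (hg38); the annotation and the strand setting of the counting are not given in the sources used here. The authors deposited normalized counts, a signal in which each gene's reads are divided by the library's size factor. Of 160380 positive values, 100% were whole multiples of the value of 1 read (tolerance 0.01), so whole reads were recovered.

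Tests used limma 3.58.1 (R 4.3.3) on log2(normalized count + 1) over all 12 libraries with 4 group means and a trend in the variance, for 11242 genes with a mean of at least 10, with Benjamini-Hochberg adjustment over all of them and a threshold of 0.05; the log2 scale with a pseudocount of 1 understates the change of low genes, and folds are ratios of mean normalized counts, with intervals from the log2 fit. The fit was tested on simulated data. Alternatives were pseudocounts, filters, 3 other scalings, limma without trend, fits of 2 groups, edgeR 4.0.16 and DESeq2 1.42.0 on whole reads, a threshold of 0.01 and leaving out each library. Leaving out A119, A120 and A126 together, the 2 transcript shares and the EGR1 motif were added after seeing the data.

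The members and lists were chosen with earlier results of these data known. Named were all 10 genes, in each list the called genes with the 3 largest changes and any that 5 or fewer calls leave to be named, and for the 4 genes with the widest range of group means the 3 nearest genes. Locations, promoter sequence and exon lengths came from RefSeq (GRCh38.p14) and GENCODE.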

Additional observations from a re-analysis of the deposited data

How the results depend on the processing

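Over the 9 tested genes and 6 comparisons, 1219 values kept their direction and their side of the threshold under the alternatives, 81 lost a call, 12 gained one and 32 changed sign; the cause was not tested. For ruxolitinib against DMSO, the 2 called genes became 0 with no filter on low values (limma; 3 at an unadjusted p under 0.05) and 0 at an adjusted p under 0.01 (limma; 2 unadjusted), and 1 each with a filter of 50, at the same total, without trend, in edgeR and in DESeq2. Leaving out 1 library gave 0 to 2. All other counts of called genes stayed within 1.5 times.

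Changes of sign were these log2 fold changes. DMSO against proliferating: PTGS1 was 0.12 at the same total, 0.05 at the same upper quartile and 0.04 after quantile normalization, and PLA2G4A was -0.23 after quantile normalization and from -0.03 to 0.30 without 1 library. Palbociclib against DMSO: at the same total PTGER2 was -0.17, and after quantile normalization HSPA8 was -0.14 and HSP90AA1 -0.12. Ruxolitinib against DMSO: PTGER2 was 0.01 after quantile normalization and PLA2G4A ranged from -0.26 to 0.06 without 1 library. Palbociclib against ruxolitinib: PTGER2 was -0.12 at the same total. Palbociclib against proliferating: PTGS2 was 0.06 (upper quartile), 0.14 (quantile) and -0.22 to 0.04 without 1 library. PTGES2 was 0.10 (upper quartile), 0.12 (quantile), 0.01 in edgeR and 0.01 in DESeq2, and -0.11 to 0.06 without 1 library. PTGIS was 0.02 (upper quartile), 0.17 without A119, A120 and A126, and -0.19 to 0.04 without 1 library. Ruxolitinib against proliferating: PTGS1 was 0.06 (total), 0.03 (upper quartile) and 0.01 (quantile). PTGER4 was -0.00032 without A119, A120 and A126, and -0.00032 to 0.28 without 1 library. PLA2G4A was -0.25 (quantile) and -0.15 to 0.15 without 1 library.

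Some list counts moved by over 1.5 times. With palbociclib against DMSO, lower receptors ranged from 1 to 6 (main 2), lower phospholipases from 0 to 4 (main 1) and higher ones from 2 to 5 (main 4), higher cyclic AMP genes from 0 to 4 (main 3), higher inducers from 0 to 3 (main 3), higher synthases from 1 to 2 (main 2), lower transport genes from 0 to 3 (main 1), higher lipoxygenase genes from 0 to 2 (main 1), and higher HSP90 genes from 1 to 6 (main 6) with lower ones from 1 to 4 (main 1). After irradiation, lower phospholipases ranged from 0 to 1 (main 1), lower receptors from 1 to 2 (main 2) and higher HSP90 genes from 1 to 2 (main 1). With ruxolitinib the lists had at most 4 calls in one direction under any alternative. No paired analysis was possible because the columns name libraries by group and carry no replicate number. Depth limits HPGD (0 to 2 reads), PTGES in proliferating cells and PTGIS with DMSO (27 to 28 reads). It also limits IL1A in proliferating libraries (1 to 8 reads) and with palbociclib (3 to 4) and IL1B with palbociclib (3 to 12). PDE3A with palbociclib (5 to 7 reads) and PDE3B with DMSO (10 to 17) are limited as well.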

Other observations

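Beside the cyclooxygenase route, the lipoxygenase route turns arachidonic acid into leukotrienes. Of 12 listed genes of that branch, 3 passed the filter, and all 3 were higher with DMSO than in proliferating cells (limma), where 33.0% of all genes were. LTB4R, a receptor of leukotriene B4, rose 2.24-fold (limma, adjusted p = 2.57e-05), ALOX12 was at 0.74 on the log2 scale, a call lost after quantile normalization, and LTA4H was at 0.39. With palbociclib LTB4R fell by 42.7% against DMSO (limma, adjusted p = 0.00242), and LTA4H was at 0.25, a call lost with every library at the same total. ALOX5, the first enzyme of leukotriene synthesis, had 0 reads in all 12 libraries.

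PTGES3 (p23) is also a member of the HSP90 chaperone machinery. Of 10 other genes of that list, 8 were lower and 1 higher after irradiation (limma), where 39.3% and 33.0% of all genes were. Their median log2 fold change was -0.47, beside -0.05 for all genes. FKBP5, an immunophilin that binds HSP90, fell by 2.06 on the log2 scale, PPID by 0.65 and STIP1 by 0.53. With palbociclib 6 of the 10 were higher than with DMSO and 1 lower (limma), where 26.0% and 22.3% of all genes were, and over the alternatives the number higher ranged from 1 to 6. HSPA8 (0.35) and HSP90AA1 (0.31) were higher, and both turned negative after quantile normalization, while FKBP5 fell by 47.2% (limma, adjusted p = 6.02e-05).

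PTGER3, which encodes EP3, did not pass the filter. It had 0 to 3 reads in proliferating libraries, 7 to 16 with DMSO, 3 to 7 with palbociclib and 10 to 18 with ruxolitinib, and was not tested.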
